A study of Mus musculus with 16 samples.

Results

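The 10 genes described here encode secreted antagonists of WNT signalling, namely Wif1, Dkk1, Dkk2, Dkk3, Sfrp1, Sfrp2, Sfrp4, Sfrp5, Frzb and Notum. They were chosen by name from the 55228 gene symbols of the count table, and all 10 passed the filter on low counts that left 18254 genes for testing. The 16 RNA libraries were made from mesenchyme of the lower urinary tract at embryonic day 16.5, and all embryos were CD-1 mice, wild type and untreated. The 4 groups, with 4 libraries each, were male pelvic urethra, female pelvic urethra, male bladder and female bladder. CD-1 is an outbred stock, and the embryos of a sex were pooled within each of 4 litters, so a library is a pool and a replicate number marks a litter. The deposited counts summed to between 24447435 and 29698009 in the urethra libraries and between 18577097 and 22293812 in the bladder libraries (n = 8 each).

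WNT proteins are lipid-modified ligands that bind Frizzled receptors and, in the β-catenin branch of the pathway, the co-receptors LRP5 and LRP6, after which β-catenin joins TCF and LEF factors on target genes. Secreted antagonists act outside the cell. WIF1 and the secreted Frizzled-related proteins bind the ligands, DKK1 and DKK2 bind LRP5 and LRP6, and NOTUM removes the lipid that the ligands need. In the embryonic pelvic urethra the mesenchyme responds to androgen and directs the formation of prostatic buds in males, while bladder mesenchyme forms the muscle of the bladder wall.

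The RefSeq table of promoters used here (GRCm38.p6) held 6 of the 10 genes, which were Wif1, Dkk1, Dkk2, Sfrp2, Sfrp5 and Frzb. The 250 bases before each start were searched on both strands for the TCF/LEF core motifs CTTTGA and CTTTGT, for the androgen receptor half-site TGTTCT and for the TATA box TATAAA. Either TCF/LEF motif was found in 3 of these 6 windows (Dkk1, Dkk2 and Frzb), and in 27.6% of all 32851 promoters. The starts are those of RefSeq. By the spans used for counting, the windows of Wif1, Dkk1 and Frzb lay partly inside the gene, and so did the Frzb motif. The half-site was found in Dkk2 alone of the 6 and in 16.1% of all promoters. The letters of the TATA box were found in Wif1, Dkk1 and Dkk2 and in 12.4% of all promoters. In Wif1 they lay on the strand opposite the gene, 232 bases before the start. In Dkk1 and Dkk2 they lay on the gene's own strand, 54 and 32 bases before it. The window of Dkk2 is shown because Dkk2 differed both between tissues and between sexes, and a stretch of the first exon of Dkk1 (GENCODE release M21), upstream of its RefSeq start, because it holds a pair of TCF/LEF motifs. Capitals mark the TCF/LEF motifs in both and the half-site in Dkk2. A match of letters is a description of the sequence and not evidence of binding.
Dkk2, chr3:132085042-132085291, plus strand: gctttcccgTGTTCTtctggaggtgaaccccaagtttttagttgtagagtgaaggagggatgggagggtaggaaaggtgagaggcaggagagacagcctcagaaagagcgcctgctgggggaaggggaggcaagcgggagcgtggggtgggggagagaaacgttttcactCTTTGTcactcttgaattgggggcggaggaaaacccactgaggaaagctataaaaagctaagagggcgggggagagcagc
Dkk1, chr19:30549587-30549616, minus strand: aagCTTTGAaatcccatcccggCTTTGTtg

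In urethral against bladder mesenchyme, 7 of the 10 antagonists were higher and 2 were lower, so the direction differed within the group. Wif1, Dkk1, Sfrp5 and Dkk2 had the largest differences, at 4.19, 3.93, 3.66 and 2.85 on the log2 scale. Sfrp4, Sfrp1 and Sfrp2 rose by 1.33, 1.04 and 0.60, Notum and Dkk3 fell by 0.65 and 0.40, and Frzb did not pass the test. These values are edgeR quasi-likelihood estimates averaged over both sexes, and a gene was called when its Benjamini-Hochberg adjusted p over all 18254 genes was under 0.05. The 2 tissues differed widely: 75% of all genes tested were called, 36.5% as higher and 38.5% as lower in urethra. Higher genes were thus 48.7% of the calls, and 60.8% when libraries were scaled by their totals in place of TMM. The share of antagonists called, 9 of 10, is therefore to be read against 75%, and the 7 that were higher against 36.5%. The members were chosen with earlier results of these data known, so these shares are a description and not a test. The median log2 fold change was 1.18 over the antagonists and −0.03 over all genes tested. No library of one tissue overlapped the other tissue for 5 of the 10 antagonists (Wif1, Dkk1, Dkk2, Sfrp1 and Sfrp5), and for 42.3% of all genes tested.

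Mesenchyme stripped of epithelium was sequenced in bulk, so fewer cells of a type and less RNA per cell cannot be told apart. The 8 mesenchymal markers, among them Pdgfra and Col1a1, summed to between 9450 and 11755 CPM (counts scaled to a common library total after TMM normalisation) in urethra libraries and between 15443 and 19597 in bladder libraries. By the test 3 of these 8 were higher and 5 lower in urethra, and their mean log2 CPM ran the other way from the sum, at 9.06 in male urethra, 9.20 in female urethra, 8.75 in male bladder and 8.93 in female bladder. Markers of other cells were present in all 16 libraries. The summed level of 8 smooth muscle markers was 1603 to 2122 CPM in urethra and 14212 to 18120 CPM in bladder, and that of 9 neuronal markers was 1112 to 1846 CPM in urethra and 126 to 384 CPM in bladder. The 12 epithelial markers summed to between 631 and 2106 CPM in urethra libraries and between 1688 and 4115 CPM in bladder libraries. Skeletal muscle markers were higher in urethra for 7 of 8 genes and lower for 1 (median log2 fold change 4.74), genital duct markers for 4 of 4 (3.04), glial markers for 6 of 6 (2.29), cartilage markers for 4 of 4 tested (1.89) and endothelial markers for 6 of 6 (0.72). Mesothelial markers were lower in urethra for 4 of 5 genes (−3.55). The part of these cells in the tissue differences was not tested, other than with the epithelial level as a covariate, which left all 9 calls in place and added Frzb (log2 fold change −0.30, adjusted p = 0.0447).

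**Figure D1:**
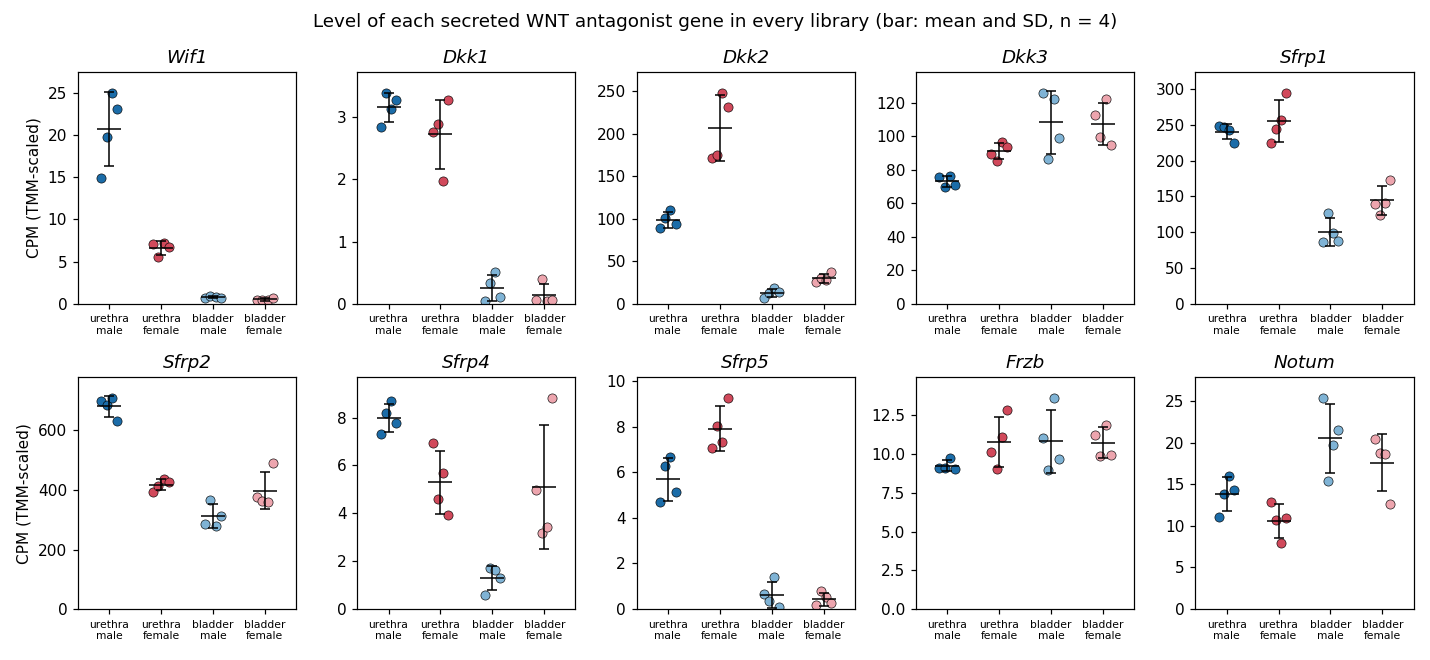
CPM of each antagonist gene (vertical axes, linear, from 0) in every library of male urethra, female urethra, male bladder and female bladder (points), with the group mean and SD (bars, n = 4). Wif1, Dkk1 and Sfrp5 average under 1 CPM in bladder, Sfrp2 is highest in male urethra, and the groups of Frzb lie between 9.25 and 10.8 CPM on average.

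Wif1 (WNT inhibitory factor 1; ENSMUSG00000020218.11, GRCm38 chromosome 10, 121033960 to 121100650, plus strand, 10 exons) encodes a protein that binds WNT ligands through its WIF domain. Its levels were 14.96, 19.8, 25 and 23.1 CPM in the male urethra libraries and 7.15, 5.49, 7.16 and 6.68 CPM in the female urethra libraries. In bladder they were 0.652, 0.925, 0.787 and 0.698 CPM in males and 0.503, 0.398, 0.456 and 0.743 CPM in females. Each male urethra library was above each female urethra library, each urethra library was above each bladder library, and the sexes overlapped in bladder. The bladder values rest on 7 to 19 counts per library, against 137 to 712 in urethra. Urethra exceeded bladder by 4.75 ± 0.20 on the log2 scale in males (SE, adjusted p = 1.37e-11) and by 3.64 ± 0.22 in females (adjusted p = 6.9e-10), by edgeR's quasi-likelihood test. Over both sexes the difference was 4.19 ± 0.15 (adjusted p = 3.78e-13), and urethra was higher in all 8 pairs of tissues from 1 litter and sex.

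The gene Dkk1 (ENSMUSG00000024868.8, chromosome 19, 30545863 to 30549665, minus strand, 4 exons) encodes a ligand of LRP6 that blocks its use as a WNT co-receptor and is itself a transcriptional target of β-catenin. It had 2.85, 3.39, 3.13 and 3.28 CPM in male urethra and 2.76, 2.89, 1.97 and 3.27 CPM in female urethra. Bladder libraries had 0.0502, 0.341, 0.509 and 0.107 CPM in males and 0.0559, 0.398, 0.0506 and 0.0531 CPM in females. The sexes overlapped in both tissues, and the lowest urethra library stood above the highest bladder library. Dkk1 was higher in urethra by 3.93 ± 0.30 (adjusted p = 3.75e-09, 8 of 8 pairs), but bladder libraries held only 1 to 11 counts, so the size of this fold is set by few reads.

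Dkk2 (ENSMUSG00000028031.6, chromosome 3, 132085292 to 132180304, plus strand, 4 exons) encodes a second LRP5 and LRP6 ligand, which in Xenopus embryos can activate the pathway as well as block it. Its levels were 88.9, 101, 110 and 94.1 CPM in male urethra and 171, 175, 248 and 232 CPM in female urethra. In bladder they were 6.72, 12.2, 18.7 and 13.6 CPM in males and 25.6, 30.3, 27.5 and 37.6 CPM in females. The 4 groups did not overlap at any step of the order female urethra, male urethra, female bladder, male bladder. Urethra was higher by 2.94 ± 0.23 in males (adjusted p = 3.13e-08) and by 2.77 ± 0.22 in females (adjusted p = 3.21e-08). Dkk1 and Dkk2 were thus both higher in urethra.

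The more distant family member Dkk3 (ENSMUSG00000030772.6, chromosome 7, 112116017 to 112159057, minus strand, 8 exons) encodes a protein that does not bind LRP6 as DKK1 and DKK2 do. It had 75.6, 69.5, 76.2 and 70.8 CPM in male urethra, 89.3, 85.2, 96.8 and 93.2 CPM in female urethra, 126, 86.5, 122 and 98.7 CPM in male bladder and 112, 99.7, 122 and 94.6 CPM in female bladder. Male urethra was lowest, below every library of the other 3 groups, and the other neighbouring groups in the order overlapped. Dkk3 fell in urethra by 0.40 ± 0.07 on the log2 scale over both sexes (adjusted p = 0.000105, lower in 8 of 8 pairs) and by 0.57 ± 0.10 in males (adjusted p = 0.000154). In females the log2 fold change was −0.23 ± 0.10 (adjusted p = 0.0569), which passed the threshold with the litter as a replicate block (adjusted p = 0.0112), with the epithelial level as a covariate (0.0428), without female bladder library 4 (0.046) and without male bladder library 2 (0.0262).

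The secreted Frizzled-related proteins carry a cysteine-rich domain like that of the Frizzled receptors. Sfrp2 (ENSMUSG00000027996.13, chromosome 3, 83766321 to 83774316, plus strand, 5 exons; the gene Gm26771 overlaps it on the other strand and the counting used strand) had 701, 687, 708 and 630 CPM in male urethra and 394, 414, 436 and 428 CPM in female urethra. In bladder Sfrp2 had 285, 368, 280 and 314 CPM in males and 376, 363, 359 and 490 CPM in females. Male urethra stood above all other libraries, and female urethra overlapped female bladder, where library 4 was the highest. In males urethra was higher by 1.13 ± 0.10 (adjusted p = 5.42e-08). In females the log2 fold change was 0.07 ± 0.10 (adjusted p = 0.519), and without female bladder library 4 it was 0.21 and passed the threshold (adjusted p = 0.0284).

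For Sfrp1 (ENSMUSG00000031548.7, chromosome 8, 23411502 to 23449632, plus strand, 3 exons) the levels were 248, 247, 242 and 225 CPM in male urethra, 225, 244, 257 and 294 CPM in female urethra, 86.2, 127, 99.2 and 88.0 CPM in male bladder and 140, 124, 141 and 173 CPM in female bladder. All 8 urethra libraries were above all 8 bladder libraries, and the sexes overlapped in each tissue. Urethra was higher by 1.26 ± 0.12 in males (adjusted p = 1.53e-07) and by 0.82 ± 0.12 in females (adjusted p = 1.49e-05).

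Sfrp5 (ENSMUSG00000018822.7, chromosome 19, 42197971 to 42202252, minus strand, 3 exons), which encodes another ligand-binding member of the family, had 4.70, 6.26, 6.67 and 5.11 CPM in male urethra and 7.05, 8.02, 7.32 and 9.24 CPM in female urethra. In bladder it had 0.652, 0.341, 1.39 and 0.107 CPM in males and 0.168, 0.796, 0.506 and 0.265 CPM in females, from 2 to 30 counts per library. The urethra libraries were all above the bladder libraries, and each female urethra library was above each male urethra library. Urethra was higher by 3.14 ± 0.38 in males (adjusted p = 2.22e-06) and by 4.18 ± 0.41 in females (adjusted p = 1.82e-07). Among the bladder libraries, male library 3 had the highest Dkk1, the highest Sfrp5 and the highest neuronal marker sum, at 0.509, 1.39 and 384 CPM. The part of neuronal cells in these values was not tested.

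Sfrp4 (ENSMUSG00000021319.7, chromosome 13, 19623104 to 19632994, plus strand, 6 exons) had 7.30, 8.21, 8.67 and 7.77 CPM in male urethra and 6.93, 4.61, 5.68 and 3.95 CPM in female urethra. Its bladder levels were 0.602, 1.70, 1.62 and 1.29 CPM in males and 4.98, 3.18, 3.44 and 8.81 CPM in females. The male bladder values rest on only 12 to 35 counts per library. Male bladder was below all other groups, male urethra was above female urethra, and female urethra overlapped female bladder. The gene was higher in urethra by 2.60 ± 0.32 in males (adjusted p = 3.03e-06), and in females the log2 fold change was 0.05 ± 0.28 (adjusted p = 0.878).

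Frzb (also known as Sfrp3; ENSMUSG00000027004.3, chromosome 2, 80411970 to 80447625, minus strand, 6 exons) encodes the family member that was first purified from bovine cartilage. It averaged 9.25 ± 0.345 CPM in male urethra, 10.8 ± 1.62 CPM in female urethra, 10.8 ± 2.05 CPM in male bladder and 10.7 ± 0.997 CPM in female bladder (SD, n = 4 each). The tissues overlapped, with a log2 fold change of −0.11 ± 0.09 for urethra over bladder (adjusted p = 0.281). In males it was −0.23 ± 0.13 (adjusted p = 0.134), and it passed the threshold with the epithelial level as a covariate (−0.40, adjusted p = 0.0257).

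Notum (ENSMUSG00000042988.10, chromosome 11, 120653788 to 120661175, minus strand, 13 exons; Myadml2os and Notumos overlap it on the other strand) encodes the carboxylesterase that removes palmitoleate from WNT proteins, and it is a feedback target of the pathway in several tissues. It had 11.1, 13.9, 16.0 and 14.3 CPM in male urethra, 12.8, 10.7, 7.94 and 10.9 CPM in female urethra, 25.3, 15.4, 19.8 and 21.5 CPM in male bladder and 20.5, 18.8, 18.6 and 12.6 CPM in female bladder. Urethra was lower than bladder in each of the 8 pairs of tissues from 1 litter and sex, although the tissues overlapped across litters. Notum fell in urethra by 0.57 ± 0.18 in males (adjusted p = 0.0096) and by 0.73 ± 0.18 in females (adjusted p = 0.00181). In males the call was lost with the epithelial level as a covariate (−0.48, adjusted p = 0.0737) and without male bladder library 1, which had the highest level (−0.41, adjusted p = 0.0601).

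Within males 7 antagonists were higher in urethra and 2 were lower, where 64% of all genes were called, 31.4% as higher and 32.6% as lower. Within females 5 were higher and 1 was lower, where 65.7% of all genes were called, 32.6% as higher and 33.1% as lower. A test of the difference between the sexes' tissue effects (the interaction of tissue and sex) called Sfrp2 and Sfrp4, 2 of 10 antagonists, and 0.668% of all genes. Both had the larger tissue effect in males. Of all genes, 0.537% were called with a more positive log2 fold change of urethra over bladder in males. A more negative one was called for 0.131%. The tissue effect was larger in males than in females by 1.05 ± 0.14 for Sfrp2 (adjusted p = 0.000651) and by 2.55 ± 0.43 for Sfrp4 (adjusted p = 0.00886). For Sfrp4 the call was lost without female urethra libraries 3 and 4 (2.42, adjusted p = 0.0659), which had the lowest epithelial marker levels. For Wif1 the corresponding difference was 1.10 ± 0.33 and did not pass the threshold (adjusted p = 0.212).

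**Figure D2:**
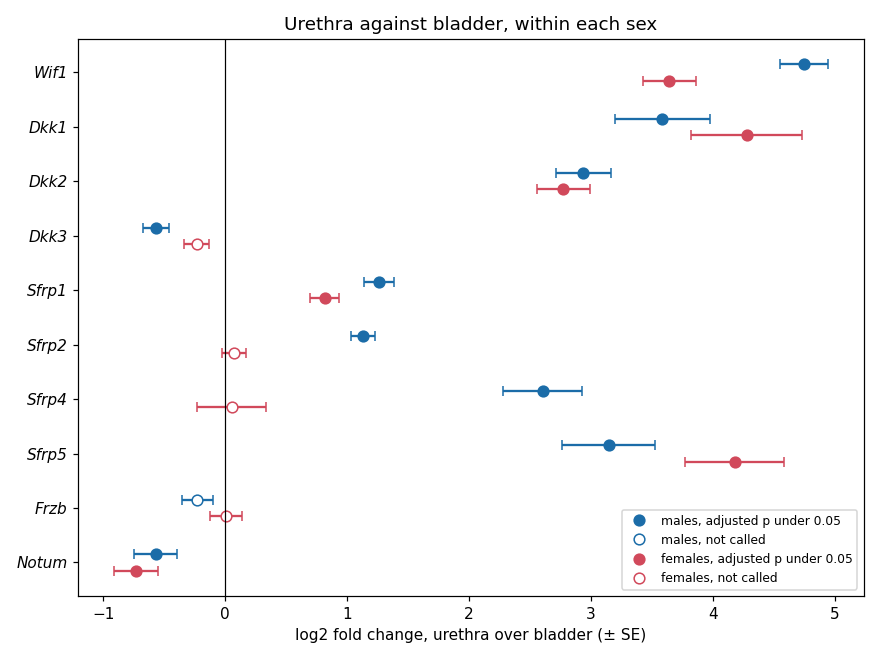
Log2 fold change of urethra over bladder (horizontal axis, ± SE) for the 10 antagonist genes in males (upper point of each pair) and in females (lower point). Filled points passed an adjusted p of 0.05; those of Sfrp2 and Sfrp4 are far apart between the sexes, at 1.13 and 0.07 for Sfrp2 and at 2.60 and 0.05 for Sfrp4.

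Between the sexes, urethral mesenchyme of males had more Wif1 and Sfrp2 and less Dkk2 than that of females. These 3 of 10 antagonists were called, 2 as higher and 1 as lower in males, where 6.39% of all genes were called, 3.97% as higher and 2.42% as lower. Wif1 averaged 20.7 ± 4.39 CPM in male and 6.62 ± 0.784 CPM in female urethra (SD, n = 4 each), a log2 fold change of 1.64 ± 0.15 (adjusted p = 2.44e-06). Sfrp2 averaged 682 ± 35.4 CPM in male and 418 ± 18.1 CPM in female urethra, a log2 fold change of 0.71 ± 0.10 (adjusted p = 0.00023). Both were higher in males in 4 of 4 litters. Dkk2, at 98.3 ± 9.07 CPM in male and 207 ± 39.1 CPM in female urethra, fell by 1.07 ± 0.20 on the log2 scale (adjusted p = 0.00413), and was lower in males in 4 of 4 litters.

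The female urethra libraries differed among themselves in epithelial markers, whose sums were 1700, 1707, 969 and 631 CPM in libraries 1 to 4, against 1598 to 2106 CPM in male urethra. Dkk2 was higher in female libraries 3 and 4 (248 and 232 CPM) than in libraries 1 and 2 (171 and 175 CPM). Its call was lost with the epithelial level as a covariate (−0.89, adjusted p = 0.074) and without libraries 3 and 4 (−0.82, adjusted p = 0.111), while its direction stayed. Wif1, at 7.15, 5.49, 7.16 and 6.68 CPM in female libraries 1 to 4, and Sfrp2 passed the threshold in both of these fits. The part of epithelial cells in the differences of Wif1, Sfrp2 and Dkk2 was not tested beyond these fits.

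Dkk3, Sfrp4 and Sfrp5 also had sexes that did not overlap in the urethra without passing the threshold, which makes 6 of 10 against 13.4% of all genes tested. Dkk3 had a log2 fold change of −0.32 ± 0.10 for male over female urethra (adjusted p = 0.0817), and with the litter as a replicate block it passed (adjusted p = 0.0132), as it did without male bladder library 2 (0.037). The log2 fold change was 0.59 ± 0.27 for Sfrp4 (adjusted p = 0.248) and −0.48 ± 0.28 for Sfrp5 (adjusted p = 0.389). For Dkk1, Sfrp1, Frzb and Notum the sexes overlapped in urethra, with log2 fold changes between −0.22 and 0.38.

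In bladder mesenchyme Dkk2 and Sfrp4 were lower in males than in females. These were 2 of 10 antagonists, where 0.581% of all genes were called, 0.247% as higher and 0.334% as lower. Dkk2 averaged 12.8 ± 4.93 CPM in male and 30.2 ± 5.29 CPM in female bladder (SD, n = 4 each), and fell by 1.24 ± 0.23 on the log2 scale (adjusted p = 0.0217). Sfrp4 averaged 1.30 ± 0.501 CPM in male and 5.10 ± 2.60 CPM in female bladder, and fell by 1.96 ± 0.34 (adjusted p = 0.0124). Male libraries were below female libraries without overlap for both genes. Over all genes tested, the sexes did not overlap, in either direction, for 6.62%. Sfrp4 kept its call under every alternative, whereas Dkk2 lost it with the epithelial level as a covariate (−1.09, adjusted p = 0.162) and without female bladder library 3 (−1.28, adjusted p = 0.0573), female bladder library 4 (−1.12, adjusted p = 0.118) or male bladder library 2 (−1.21, adjusted p = 0.059). Epithelial markers summed to 3427 to 4115 CPM in male bladder and to 1688 to 3419 CPM in female bladder, and their part in these differences was not tested beyond that covariate.

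Dkk2 was thus lower in males in both tissues, and the interaction gave a difference of 0.16 ± 0.30 between its tissue effects in males and females (adjusted p = 0.978). The other DKK genes had log2 fold changes for male over female bladder of 0.91 ± 0.69 (Dkk1, adjusted p = 0.66) and 0.01 ± 0.10 (Dkk3, adjusted p = 0.981). For Sfrp1, at 100.2 ± 19.05 CPM in male and 145 ± 20.5 CPM in female bladder, it was −0.53 ± 0.12 (adjusted p = 0.0559). Sfrp1 passed the threshold without male bladder library 2, the highest male library (−0.67, adjusted p = 0.00838), and more narrowly without female bladder library 2 (0.0374) or female urethra library 4 (0.0465). Sfrp2, at 312 ± 40.2 CPM in male and 397 ± 62.6 CPM in female bladder, had a log2 fold change of −0.35 ± 0.10 (adjusted p = 0.112).

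**Figure D3:**
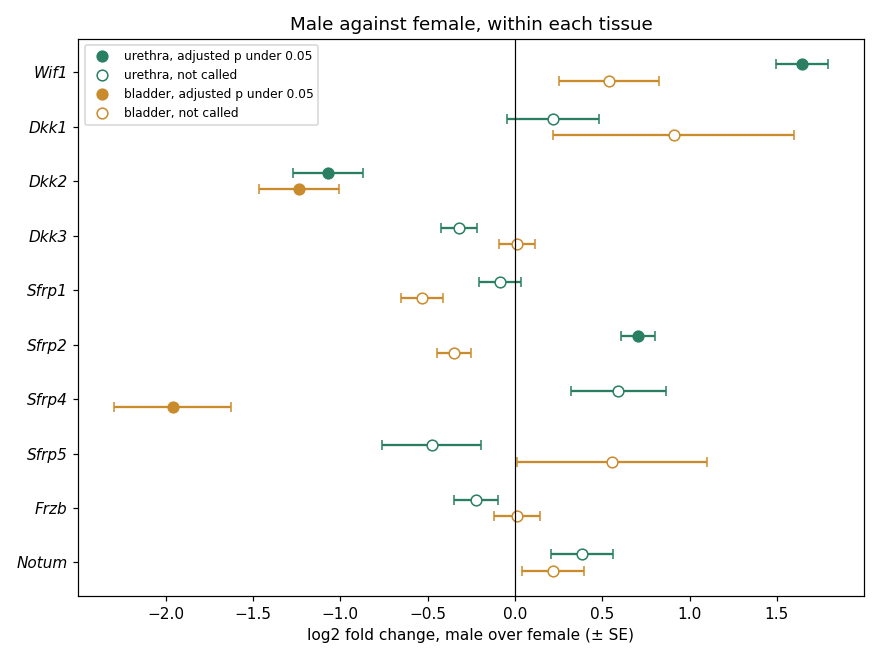
Log2 fold change of male over female (horizontal axis, ± SE) for the 10 antagonist genes in urethra (upper point of each pair) and in bladder (lower point). Filled points passed an adjusted p of 0.05: Wif1 (1.64), Sfrp2 (0.71) and Dkk2 (−1.07) in urethra, and Dkk2 (−1.24) and Sfrp4 (−1.96) in bladder.

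Levels of different genes were compared per kilobase of exon, with the length that the count table gives for each gene. The summed level of the 10 antagonists was 443 ± 20.5 CPM per kilobase in male urethra, 352 ± 25.03 in female urethra, 216 ± 15.5 in male bladder and 270.0 ± 31.5 in female bladder (SD, n = 4 each). Sfrp2 was the most abundant antagonist in each of the 4 groups, at 71.4% of that sum in male urethra, 55.2% in female urethra, 66.8% in male bladder and 68.1% in female bladder. Sfrp1 gave 12.4, 16.5, 10.5 and 12.2% in the same order of groups. Dkk2 reached 15.7% in female urethra, against 5.99% in male urethra, 1.604% in male bladder and 3.02% in female bladder. Dkk3 moved the other way between tissues, with 4.91% in male and 7.71% in female urethra and 15.1% in male and 11.99% in female bladder. Dkk1 was the least abundant member in all 4 groups, at 1.30, 1.12, 0.104 and 0.0574 CPM per kilobase in male urethra, female urethra, male bladder and female bladder. Thus Wif1, which had the largest fold difference between tissues, gave at most 1.93% of the sum, in male urethra.

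**Figure D4:**
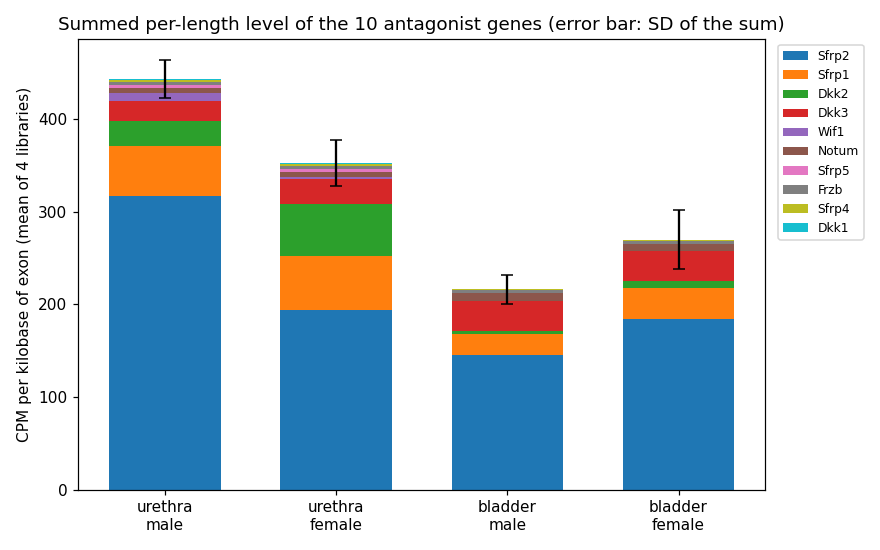
Summed level of the 10 antagonist genes in CPM per kilobase of exon (vertical axis, from 0) in male urethra, female urethra, male bladder and female bladder, split by gene. Bars are means of 4 libraries and the error bars are the SD of the sum; Sfrp2 is the largest segment in each group and the sum is highest in male urethra, at 443.

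Genes whose pattern over the 16 libraries was most like that of Wif1 were found from the root mean square difference of log2 CPM after centring each gene on its own mean. The nearest 3 were Calb1 (0.42), Aldh1a3 (0.48) and Cyp26a1 (0.48). Calb1 encodes a calcium-binding protein, and Aldh1a3 and Cyp26a1 encode enzymes that make and break down retinoic acid. Aldh1a3 averaged 66.2 CPM in male urethra, 22.8 in female urethra, 3.39 in male bladder and 2.59 in female bladder. For Notum, the member with the lowest log2 fold change between tissues, the nearest were Gm38372 (0.19), Gk (0.19) and C1ra (0.20).

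Of 12 other antagonists of the pathway, among them Shisa2, Shisa3 and Shisa6, 10 were tested. In urethra 7 of these were higher and 3 lower, with a median log2 fold change of 0.92. Of all genes tested, 36.5% were higher and 38.5% lower. Tpbg, which encodes a membrane protein known as a WNT inhibitor from zebrafish, rose by 1.39 ± 0.06 (adjusted p = 2.22e-12), and Apcdd1, which encodes a membrane inhibitor that binds ligand and LRP5, rose by 2.25 ± 0.14 (adjusted p = 9.46e-10). Sostdc1, a secreted antagonist of BMP and WNT signals, fell by 1.22 ± 0.11 (adjusted p = 3.32e-08), and Dkkl1, a DKK3-related gene, fell by 1.63 ± 0.23 (adjusted p = 6.23e-06).

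The Kremen proteins are membrane receptors that act with DKK1 and DKK2 on LRP6. Kremen2 averaged 4.97 ± 0.709 CPM in urethra and 0.311 ± 0.189 CPM in bladder (SD, n = 8 each), a log2 fold change of 3.96 ± 0.23 (adjusted p = 1.37e-10). Kremen1 averaged 62.8 ± 5.04 CPM in urethra and 81.6 ± 7.17 CPM in bladder, and fell by 0.38 ± 0.04 (adjusted p = 5.49e-07). At 0.311 CPM in bladder, the size of the Kremen2 fold is set by few reads, as for Dkk1. Kremen2, Dkk1 and Dkk2 were therefore all higher in urethra, while Kremen1 and Dkk3 were lower.

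A list of 56 other WNT pathway genes held 51 tested genes, of which 34 were higher and 10 lower in urethra, with a median log2 fold change of 0.53. This count and those by role are to be read against 75% of all genes called, 36.5% as higher and 38.5% as lower. Of 15 ligand genes tested, 9 were higher and 3 lower: Wnt11 rose by 1.39 ± 0.07 and Wnt6 by 2.16 ± 0.14, and Wnt2b fell by 2.13 ± 0.14 and Wnt2 by 1.76 ± 0.13. Of 15 receptor genes, 13 were higher and 2 lower, among them the Frizzled gene Fzd10, which rose by 2.70 ± 0.11. Of 8 tested genes of R-spondins, secreted enhancers of the pathway, and of their receptors, 5 were higher and 3 lower, with Rspo3 at 2.19 ± 0.14 and Rspo1 at −2.34 ± 0.17. The 5 include Rnf43 (1.28 ± 0.10) and Znrf3 (0.14 ± 0.06), named after their values were seen, which encode ubiquitin ligases that remove Frizzled receptors and so inhibit the pathway. Of 5 feedback targets, 4 were higher, among them Axin2 (1.13 ± 0.08, adjusted p = 1.27e-09) and Sp5 (1.80 ± 0.14, adjusted p = 5.1e-09), and Nkd1 was lower (−0.91 ± 0.05, adjusted p = 1.13e-10). Lgr5 is among the 4 higher targets and also among the 5 higher genes of R-spondins and their receptors. Antagonists, ligands, receptors and targets of the pathway thus each had called genes in both directions, as had the members. In each of these, more genes were higher than lower in urethra. Of 5 mediators, which act inside the cell and include Lef1, 3 were higher and 0 lower.

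In male against female urethra 9 of these 51 genes were called, 6 higher and 3 lower, with a median log2 fold change of −0.01, where 6.39% of all genes were called, 3.97% as higher and 2.42% as lower. The count was 5 with the epithelial level as a covariate and 4 without female urethra libraries 3 and 4, and the median log2 fold change of the 12 epithelial markers in this comparison was 0.58. The ligand gene Wnt9b was higher in males by 3.75 ± 0.29 (adjusted p = 3.4e-07) and Rspo3 by 0.86 ± 0.19 (adjusted p = 0.0107). Sp5 was higher by 1.22 ± 0.17 (adjusted p = 0.000262), as were Wif1 and Sfrp2. Of 15 ligand genes tested, 4 were higher in males and 0 lower. The roles of Rspo3 and Sp5 also held genes that were lower in males. These were Rspo2 (−1.07 ± 0.30, adjusted p = 0.0489) and the feedback target Nkd1 (−0.26 ± 0.07, adjusted p = 0.0432). Lef1, which encodes a partner of β-catenin on DNA, fell in males by 0.62 ± 0.13 (adjusted p = 0.00939), as did Dkk2. Of the 10 other antagonists tested, 0 were higher in male urethra and 1, Igfbp4, was lower (−0.34 ± 0.08, adjusted p = 0.0202).

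**Figure D5:**
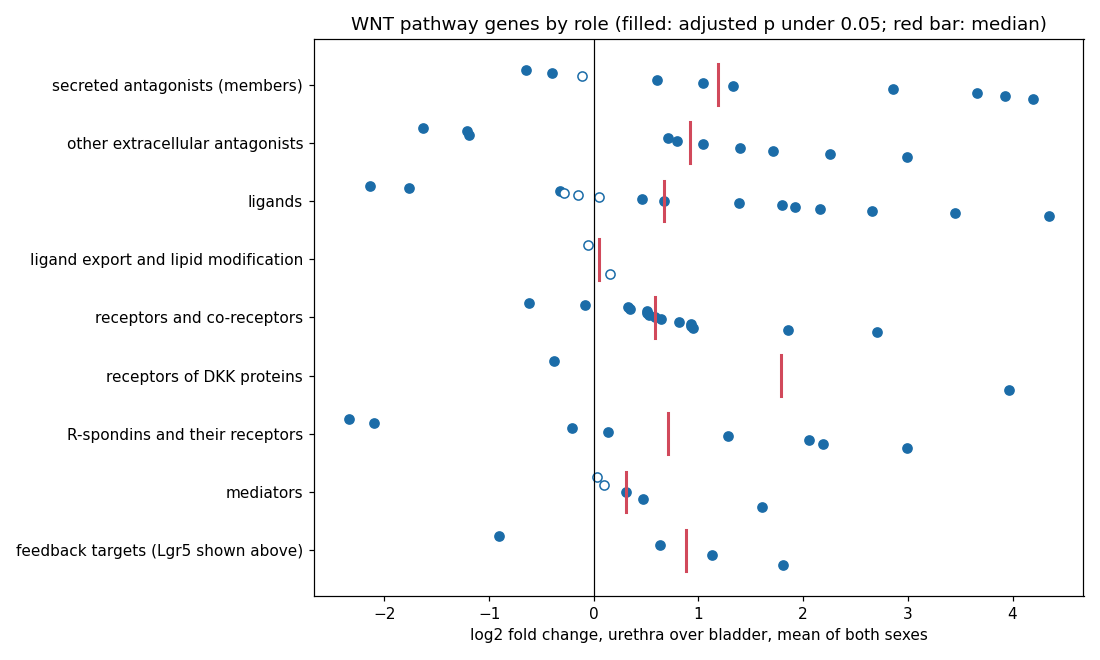
Log2 fold change of urethra over bladder, averaged over both sexes (horizontal axis), for the 10 antagonist genes (top row) and for the other WNT pathway genes by role (1 point per gene). Filled points passed an adjusted p of 0.05. Red bars are medians, 1.18 for the members and 0.92 for the other antagonists, whose row is labelled extracellular. Every role with more than 2 genes but the mediators has called genes on both sides of 0.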

How the data were processed

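Per the labels' protocols, epithelium was stripped after trypsin, and libraries were made from poly(A) RNA with a stranded kit and read as paired ends. Alignment was to GRCm38 with HISAT2 2.1.0 and counting with Subread 1.6.3, per the submitters' processing notes, which also name bcl2fastq, SAMtools and DESeq2. The deposited table gives, per gene symbol, the exon length and raw counts of read pairs, with featureCounts strand setting 2 per the file headers. The sources used here name no GENCODE release. The authors' second table, of normalised values, was not used here.

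Tests used edgeR 4.0.16 (quasi-likelihood, robust, TMM scaling, filterByExpr, 1 fit of the 4 groups) in R 4.3.3 with limma 3.58.1, and figures used matplotlib 3.10.9 and pandas 2.3.3 in Python 3.11.15. Benjamini-Hochberg adjustment was over all 18254 genes tested. CPM use TMM-scaled totals, and log2 CPM a prior count of 2. The SE is approximate: it was taken as the log2 fold change, without its sign, over the square root of F. The p-values measure the spread between pools from 4 litters.

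The members and gene lists were chosen with earlier results of these data known. Of the other pathway genes, at most the 2 with the smallest p per role and direction were eligible for naming. Rnf43 and Znrf3 were named outside this rule, after their values were seen. Likeness was computed for the members with the highest and lowest tissue difference and the smallest p between the sexes in urethra, and 3 genes were named for each. The labels give each replicate number a litter, which pairs the libraries. Deviations from the group mean correlated between the tissues of 1 litter and sex with a median of 0.194 (8 pairs, 0.092 to 0.409, 7 over 0.1) and between the sexes of 1 litter and tissue with a median of 0.123 (8 pairs, −0.047 to 0.265, 4 over 0.1), against −0.051 between libraries of other litters and groups. No 2 libraries of a group were copies: chi-squared over its degrees of freedom was 4.91 to 37.16 in 24 pairs. Alternatives were library totals or DESeq2 size factors for scaling, the Wald test of DESeq2 1.42.0, no filter on low counts, the litter as a block, the mean epithelial marker level as a covariate, and leaving out libraries.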

Additional observations from a re-analysis of the deposited data

Results flagged for a closer look

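Sfrp2 and Sfrp4 had tissue effects that differed between males and females by the interaction test, by 1.05 and 2.55 on the log2 scale. In 40 combinations of an antagonist and a group, 3 had a library set apart from the other 3 of its group on the log2 CPM scale, where chance marks about 1 in 20. Dkk1 in female bladder library 2 was the highest, at 0.398 CPM against 0.0506 to 0.0559 CPM in the others, with a gap of 0.97 of the group's range, from 7 counts against 1 in each of the others. Sfrp2 in female bladder library 4 was the highest, at 490 CPM against 359 to 376 CPM, with a gap of 0.852 of the range. Frzb in male urethra library 3 was the highest, at 9.76 CPM against 9.05 to 9.09 CPM, with a gap of 0.943 of a narrow range.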

How the results depend on the processing

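No member changed direction while called under any alternative. In urethra against bladder over both sexes, 9 members were called in every alternative other than the epithelial covariate, which gave 10. For male against female in bladder, 2 members were called, against 4 with the DESeq2 Wald test (which added Sfrp1, adjusted p = 0.00375, and Sfrp2, adjusted p = 0.0248), 1 with no filter on low counts (Dkk2 lost, adjusted p = 0.0748), 1 with the epithelial covariate and 1 to 3 without single libraries. The interaction called 2 members, and 1 without female urethra libraries 3 and 4. Of the pathway list, 9 genes were called for male against female urethra, against 5 with the epithelial covariate, 4 without female urethra libraries 3 and 4, and 6 to 13 without single libraries. Over all genes, counted under the alternatives by a choice made after the data had been seen, 1167 were called in this contrast, against 566 with that covariate, 370 without those libraries and as few as 674 without a single library. For male against female bladder it was 106, against 466 with the DESeq2 Wald test, 31 with the covariate and 40 to 174 without single libraries, and for the interaction 122, against 270 with the Wald test, 188 with the covariate, 56 without female urethra libraries 3 and 4 and as few as 70 without a single library. Scaling by library totals moved the median log2 fold change over all genes by 0.14 between tissues, with 9 members called, and made 63.3% of calls higher ones in males (49% with TMM), 61.1% in females (49.6%) and 53.3% for male against female bladder (42.5%). With the litter as a replicate block, which pairs the libraries, 9 members were called between tissues over both sexes, 7 in females (Dkk3 added), 4 between the sexes in urethra (Dkk3 added, as with the DESeq2 Wald test, adjusted p = 0.0435) and 2 in bladder, and the block changed no other call of a member. Low counts limit Dkk1, Sfrp5, Wif1 and Kremen2 in bladder. They also limit Sfrp4 in male bladder (12 to 35 counts per library). That group enters the Sfrp4 tissue effect in males, its sex difference in bladder and its interaction.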
